A study of Rattus norvegicus with 8 samples.

Results

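Vascular cells of the rat retina were followed through 10 genes on a 2-colour Agilent array: 7 known from endothelial cells (Pecam1, Cldn5, Esam, Vwf, Kdr, Tek and Tie1) and 3 known from pericytes (Pdgfrb, Rgs5 and Cspg4). They were taken by the gene name that the array design gives its spots, and all 10 were found among 26334 names, control spots aside. Retinas came from female Lister Hooded rats, 8 weeks old at surgery under xylazine and ketamine. In the optic nerve crush group (ONC), forceps closed on the nerve, 3 mm behind the optic disc, for 10 s. The sham group (CTR) had all of the surgery but the crush. Both groups were examined 2 weeks later, with 4 retinas each. RNA of the whole retina was measured, so fewer vascular cells and less RNA per vascular cell cannot be told apart.

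Endothelial cells line the retinal capillaries and join tightly, which forms the inner blood-retinal barrier. Pericytes wrap these capillaries, and the retina is known for carrying many of them. Growth factor receptors on both cell types, such as those for VEGF, angiopoietins and PDGF, govern how vessels grow and stay stable.

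By the labels, a CTR and an ONC retina with equal numbers shared each of 4 arrays, CTR always in Cy5 (red) and ONC always in Cy3 (green), so dye and condition cannot be told apart. The methods describe another layout, with retinas of 1 group on each array and the dyes divided within groups, and the dye matches the labels only for CTR2, CTR4, ONC1 and ONC3. With control spots left out, median foregrounds ranged from 446.6 in CTR3 to 626.0 in CTR2 over backgrounds of 55.0 to 56.5, and from 218.1 in ONC4 to 494.7 in ONC2 over backgrounds of at most 29.5. The number of arrays limits precision.

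Markers of the cells that the crush injures go against the labels. Retinal ganglion cells send their axons through the optic nerve and are lost after crush, and 11 of their 12 listed markers were on the array and passed the filter. The median log2 difference of these 11 genes from each gene's mean over the 8 channels was -1.55, 1.15, -1.02 and -0.95 in the channels labelled CTR1 to CTR4. It was 1.15, 1.15, 1.36 and -1.19 in those labelled ONC1 to ONC4. Between the labels, 11 of the 11 were higher in ONC and 0 lower. By the median, CTR2 was the high CTR channel and ONC4 the low ONC channel. Gene by gene, CTR2 was the highest CTR channel for 9 of the 11 and ONC4 the lowest ONC channel for 11 of the 11. The 2 for which CTR2 was not highest were Isl1, a transcription factor, and the tubulin gene Tubb3, both named after their values were seen. For both, every ONC channel lay above every CTR channel, unlike Nefm below, where CTR2 was high and ONC4 low. Log2 levels of Isl1 were 0.79, 0.91, 0.73 and 0.98 for CTR1 to CTR4 and 1.51, 1.49, 1.49 and 1.48 for ONC1 to ONC4, which followed the label and the dye. Those of Tubb3 were 1.02, 1.80, 1.17 and 1.80, then 2.84, 2.43, 2.92 and 2.24. The brightest marker, the neurofilament gene Nefm, had log2 levels of -0.21, 2.84, 0.12 and -0.13 for CTR1 to CTR4 and 2.90, 2.99, 2.97 and -0.35 for ONC1 to ONC4. The summed linear level of the 11 markers ran from 7.64 in CTR1 to 42.3 in ONC3, and every one of the 11 was well above background in all 8 channels. Channels keep the names of their labels throughout, so every direction below compares labels.

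Levels are log2 of background-subtracted, loess-normalized intensity with the median of each channel at 0, so they compare channels within a gene and not genes with each other. Spots needed a foreground of at least 2 times the background in all 8 channels. Of the 10 genes, 9 passed and Tek did not. The groups were compared with limma over 16307 genes, and 0 of the 9 were called at an adjusted p under 0.05, against 81 genes or 0.497% of all tested. At an unadjusted p under 0.05 the count was also 0 of 9, against 18.6% of all genes. With the array as a replicate block, limma called 0 of the 9 and 7.69% of all genes. The criterion of the methods, which joins a test of the means to a fold-change limit set by the spread, took 0 of 9 and 3.13% of all genes. The median log2 fold change of the 9 genes was -0.05, beside -0.01 over all genes. Levels of CTR and ONC channels overlapped in 9 of 9 genes, while 12.7% of all genes had groups that did not overlap.

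**Figure D1:**
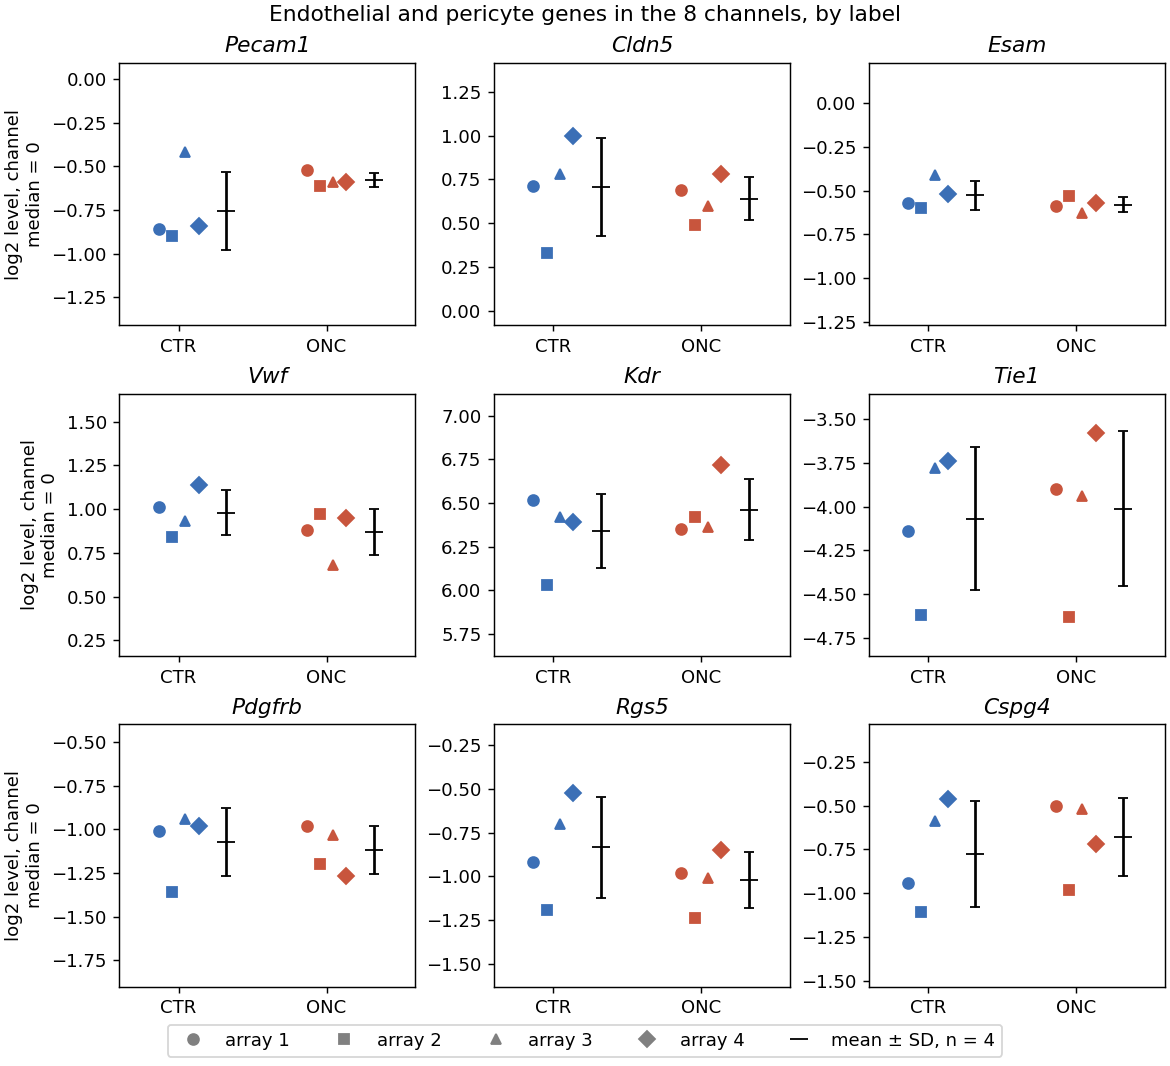
Log2 level (vertical axis, channel median at 0) of the 9 genes that passed the filter, in the CTR and ONC channels, with a marker shape for each array and the mean and SD of 4 channels as bars. All panels span the same range of log2 units, and in each the 2 groups overlap; Tie1 is widest, from -4.63 to -3.58, and Esam narrowest, from -0.63 to -0.41.

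Pecam1 (CD31) is an adhesion molecule at contacts between endothelial cells. Its log2 level was -0.86, -0.90, -0.42 and -0.84 for CTR1 to CTR4 and -0.52, -0.61, -0.59 and -0.59 for ONC1 to ONC4. The ONC channels lay close together and above 3 of the CTR channels, with CTR3 above all of them. The log2 fold change was 0.18 (standard error 0.11, 95% interval from -0.08 to 0.43, adjusted p = 0.459 by limma), the ONC channel being higher on 3 of 4 arrays. Without CTR3 the log2 fold change was 0.29, with an unadjusted p of 0.00706 and an adjusted p of 0.214 by limma, its lowest over the alternatives. Leaving out the CTR channel nearest to or above ONC widens the difference by design. With any other channel left out, it was 0.13 to 0.19, with unadjusted p from 0.186 to 0.330.

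Cldn5 is a claudin that seals the tight junctions of the barrier. Its probe lies at chr11_random:1224740-1224799 on the minus strand in the genome build of the array design (rn4) and is shown because it reads a gene that defines the barrier.
Cldn5: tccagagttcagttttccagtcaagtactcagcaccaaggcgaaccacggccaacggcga
The log2 level of Cldn5 was 0.71, 0.33, 0.78 and 1.0 for CTR1 to CTR4 and 0.69, 0.49, 0.60 and 0.78 for ONC1 to ONC4. Both channels of array 2 were the lowest of their group, and the ONC values lay inside the range of the CTR values. Its log2 fold change was -0.06 (standard error 0.14, 95% interval from -0.38 to 0.26, adjusted p = 0.863 by limma).

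Esam, an adhesion molecule of endothelial tight junctions, varied least. Levels were -0.57, -0.60, -0.41 and -0.52 for CTR1 to CTR4 and -0.59, -0.53, -0.63 and -0.57 for ONC1 to ONC4, all within 0.22 log2 units. The fold change of Esam was -0.05 on the log2 scale (standard error 0.08, 95% interval from -0.23 to 0.12, adjusted p = 0.776 by limma). This was the narrowest interval of the 9 genes.

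Vwf encodes von Willebrand factor, which endothelial cells store and secrete and which binds platelets. Averaged over its 2 probes, its log2 level was 1.01, 0.84, 0.93 and 1.14 for CTR1 to CTR4 and 0.88, 0.97, 0.68 and 0.95 for ONC1 to ONC4. The groups overlapped and differed by -0.11 on the log2 scale (standard error 0.10, 95% interval from -0.34 to 0.11, adjusted p = 0.603 by limma). The probes did not behave alike. Both lie on the plus strand of chromosome 4 in rn4, one at chr4:161854554-161854613 and the other at chr4:161854702-161854761, and the first is shown because it alone separates the labels.
Vwf, probe A_64_P114913: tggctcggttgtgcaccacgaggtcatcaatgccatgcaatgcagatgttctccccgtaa
Its log2 level was 0.70, 0.53, 0.55 and 0.72 for CTR1 to CTR4 and 0.36, 0.49, 0.04 and 0.37 for ONC1 to ONC4, a difference of -0.31 without overlap and with ONC lower on 4 of 4 arrays. Of all 18599 probes, 7.01% had ONC channels that all lay under the CTR channels. The other probe, A_64_P136501, was at 1.32, 1.14, 1.31 and 1.56 for CTR1 to CTR4 and at 1.40, 1.44, 1.32 and 1.52 for ONC1 to ONC4. Its groups overlapped and differed by 0.09, the ONC channel being higher on 3 of 4 arrays. The difference between the probes was not tested, and with the brightest probe alone the log2 fold change of Vwf was 0.09.

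**Figure D2:**
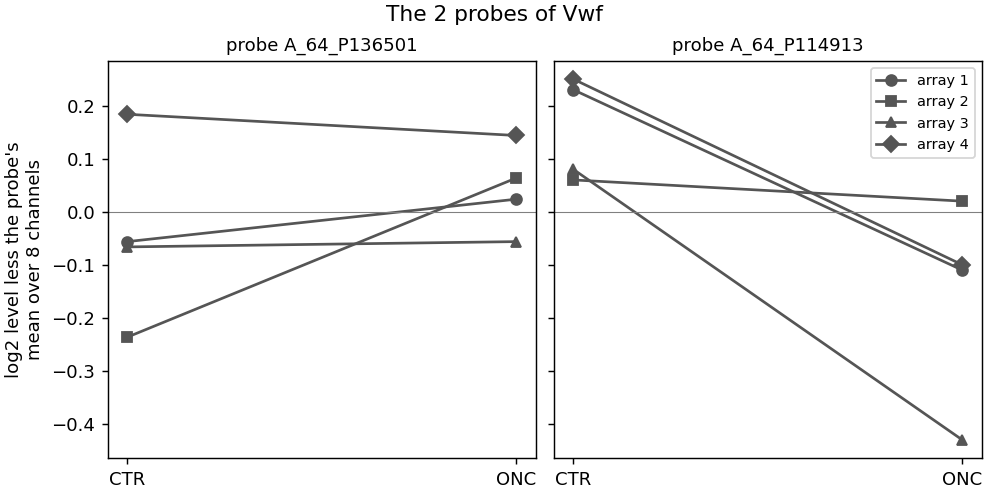
Log2 level of each Vwf probe less its mean over the 8 channels (vertical axis) in the CTR and ONC channels, with a line for each array. For A_64_P114913 every line falls from CTR to ONC, by a mean difference of -0.31, while A_64_P136501 rises on 3 of 4 arrays with a mean difference of 0.09.

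Kdr (VEGFR2) is the main signalling receptor for VEGF on endothelium. Its probe had foreground over background between 1748 and 3637 in all channels and no saturated spot. It was brighter than 99.3% to 99.7% of the spots of its channel, where Pecam1 was brighter than 56.0% to 60.1%. The array design lists it without a genome position, and whether all of its signal comes from Kdr was not tested. The log2 level of Kdr was 6.52, 6.03, 6.42 and 6.39 for CTR1 to CTR4 and 6.35, 6.42, 6.36 and 6.72 for ONC1 to ONC4. CTR2 was lowest and ONC4 highest, and the other channels lay between 6.35 and 6.52. Its log2 fold change was 0.12 (standard error 0.13, 95% interval from -0.17 to 0.42, adjusted p = 0.668 by limma), and it was 0.02 without CTR2 and 0.04 without ONC4. Median scaling in place of loess turned this to -0.25, where the median of all genes was 0.07.

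Tek (TIE2), the angiopoietin receptor, and its relative Tie1 had spots near their background. Their probes, at chr5:115178576-115178635 on the plus strand for Tek and chr5:138950263-138950322 on the minus strand for Tie1 (rn4), are shown because the filter divides them.
Tek: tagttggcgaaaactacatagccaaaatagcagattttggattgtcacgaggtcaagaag
Tie1: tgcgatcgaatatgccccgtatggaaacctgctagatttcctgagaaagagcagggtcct
Foreground over background of the Tek spot was 1.51, 1.6, 1.63 and 1.22 for CTR1 to CTR4 and 2.34, 2.89, 3.13 and 2.30 for ONC1 to ONC4. By the mark that the scanner software sets, Tek was well above background in 0 of 8 channels, so no fold change is given for it. For CTR channels, the Tek foreground was 66.9 to 80.8 over 49.5 to 55.0, and for ONC channels 57.6 to 78.1 over 23.0 to 29.0. For Tie1, the ratio was 2.03, 2.02, 2.25 and 2.09 in CTR1 to CTR4, just inside the filter, and 3.61, 3.18, 3.42 and 3.29 in ONC1 to ONC4. Tie1 was well above background in 7 of 8 channels, ONC4 being the exception.

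**Figure D3:**
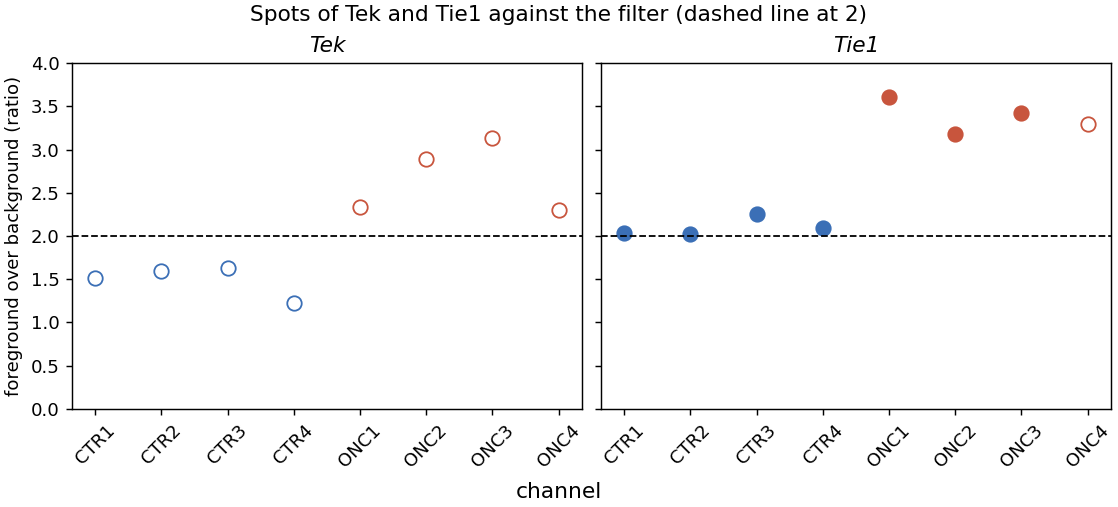
Foreground over background (vertical axis) of the Tek and Tie1 spots in the 8 channels, filled where the scanner software marked the spot as well above background, with the filter at 2 as a dashed line. Tek falls below the line in all CTR channels (1.22 to 1.63), and Tie1 stays just above it there (2.02 to 2.25).

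After normalization, the log2 level of Tie1 was -4.14, -4.62, -3.78 and -3.74 for CTR1 to CTR4 and -3.90, -4.63, -3.94 and -3.58 for ONC1 to ONC4. The 2 channels of array 2 were lowest and nearly equal. Its log2 fold change of 0.06 had the widest error of the 9 genes (standard error 0.25, 95% interval from -0.52 to 0.63, adjusted p = 0.931 by limma). It moved with the normalization, to 0.84 with median scaling alone (unadjusted p = 0.0118, adjusted p = 0.0559 by limma, its lowest over the alternatives) and -0.38 with the signals as the scanner software processed them.

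Among the pericyte genes, Pdgfrb encodes the receptor through which PDGF-B from endothelium recruits pericytes. Its log2 level was -1.01, -1.36, -0.94 and -0.98 for CTR1 to CTR4 and -0.98, -1.20, -1.03 and -1.27 for ONC1 to ONC4. CTR2 stood below the other CTR channels, and ONC2 and ONC4 were the lower ONC channels. The log2 fold change was -0.05 (standard error 0.12, 95% interval from -0.31 to 0.22, adjusted p = 0.884 by limma), and it was 0.02 with median scaling alone and 0.15 with the processed signals.

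Rgs5, a regulator of G-protein signalling that is rich in pericytes, came closest to a uniform direction. Its probe covers chr13:85480542-85482176 on the plus strand in rn4, a span of 1635 bases for a probe of 60, and is shown for that reason.
Rgs5: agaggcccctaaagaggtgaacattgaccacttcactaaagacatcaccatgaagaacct
Log2 levels of Rgs5 were -0.92, -1.19, -0.70 and -0.52 for CTR1 to CTR4 and -0.98, -1.24, -1.01 and -0.85 for ONC1 to ONC4. The ONC channel was lower on 4 of 4 arrays, though the groups overlapped. The log2 fold change was -0.19 (standard error 0.15, 95% interval from -0.53 to 0.15, adjusted p = 0.556 by limma). Over the alternatives it stayed below 0, between -0.31 and -0.08. Its lowest adjusted p was 0.169, with the array as a replicate block (standard error 0.08, unadjusted p = 0.0550 by limma). Without CTR2 it was -0.31, with an unadjusted p of 0.0472 and an adjusted p of 0.244 by limma.

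Cspg4 (NG2), a proteoglycan on the pericyte surface, was read by 10 spots of a single probe, of which 8 carried no outlier flag in any channel. Its log2 level was -0.94, -1.11, -0.59 and -0.46 for CTR1 to CTR4 and -0.50, -0.98, -0.52 and -0.72 for ONC1 to ONC4. CTR4 was the highest channel and CTR2 the lowest, with ONC2 next above it. Its log2 fold change was 0.09 (standard error 0.17, 95% interval from -0.28 to 0.47, adjusted p = 0.824 by limma). Cspg4 also marks oligodendrocyte precursors, and Pdgfra, the brightest gene of the oligodendrocyte lineage list, differed by 0.15 (adjusted p = 0.457 by limma).

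Values also moved with the array. When the 2 channels of an array were averaged, array 2 was the lowest of the 4 arrays in 7 of the 9 genes, array 1 in 1 and array 3 in 1. Array 2 was also lowest in 45.7% of all 16307 genes, so this is shared with many genes outside the vascular set. The range over the 8 channels had a median of 0.65 log2 units among the 9 genes and 0.57 among all genes.

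Spread within a label was measured as the relative expression variability (REV), a coefficient of variation in percent, taken at the middle of its chi-square interval, and as gene expression stability (GES), the percentile of a gene from the most to the least variable. For Pecam1, REV was 35.6% for CTR and 6.22% for ONC, and GES 27.6 and 96.6. CTR3 stood apart from the other CTR channels, as its levels show. Cldn5 had REV of 40.2% and 18.0%, and Rgs5 of 42.0% and 23.5%. Esam was stable under both labels, with REV of 12.9% and 5.91% and GES of 85.6 and 97.2. Tie1 was the most variable of the 9, at 55.8% and 59.9%. The median REV of the 9 genes was 29.6% in CTR and 18.0% in ONC, beside 25.1% and 21.7% over all genes. Probes with a single spot get a wider interval than Cspg4 with its 8 spots, so REV values of genes with unequal numbers of spots do not compare directly.

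Beyond the 10 genes, 6 lists of other vascular genes were read in the same fit. They named 65 genes, of which 43 passed the filter, 18 higher and 25 lower in ONC, which became 29 higher and 14 lower with median scaling. Limma called 0 of the 43, beside 0.497% of all genes, with 2 at an unadjusted p under 0.05, beside 18.6%, and 2 called with the replicate block, beside 7.69%. The methods' t-test took 2 of them at its threshold, beside 16.4% of all genes, and the criterion of the methods 0, beside 3.13%. Directions of several lists turned with median scaling in place of loess, as given with each. Of the VEGF family, 6 of 9 passed, with 5 higher and 1 lower in ONC and a median log2 fold change of 0.10 that was 0.43 with median scaling and -0.02 with the processed signals. The smallest p belonged to the ligands Pgf (-0.78, standard error 0.38, adjusted p = 0.312) and Vegfc (0.23, standard error 0.13, adjusted p = 0.381). Pgf was at -0.78 and -0.77 in CTR3 and CTR4 but between -2.57 and -1.96 in all other channels, and its difference was -0.53 without CTR3 or without CTR4. Vegfc gave 0.40 with median scaling, 0.01 with the processed signals and 0.15 to 0.35 with a channel left out. Of the angiopoietin and PDGF family, 4 of 8 passed, with a median of -0.06 that was 0.29 with median scaling. Angpt1, the ligand of Tek, had no value when spots had to be well above background in all channels. Its level was -1.93 in ONC1 and between -4.50 and -3.65 elsewhere, so that its difference of 0.53 was 0.02 without ONC1. It was 0.80 without ONC2 and 1.20 with median scaling (adjusted p = 0.0795 by limma, its lowest over the alternatives). In CTR2, CTR4, ONC1 and ONC3 alone, which keep ONC1, it was 1.14. Labels and methods agree on the dye of each of those channels, but CTR is still all Cy5 and ONC all Cy3. Angpt2 differed by -0.10, by -0.16 to -0.04 with a channel left out, by 0.00 with median scaling and by 0.07 in those 4 channels.

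Of the genes for endothelial junctions and transport, 12 of 14 passed, 6 higher and 6 lower, with a median of 0.02, or 0.07 with median scaling. Plvap, which forms diaphragms in fenestrated endothelium and is scarce where the barrier is closed, was at 1.03, 1.23, 1.08 and 1.25 for CTR1 to CTR4 and 0.62, 0.88, 0.56 and 0.64 for ONC1 to ONC4. These groups did not overlap, as in 12.7% of all genes. They differed by -0.47 on the log2 scale (standard error 0.10), with an adjusted p of 0.0661 by limma that became 0.0318 with the array as a replicate block. Plvap was below 0 in 17 of 17 alternatives, between -0.65 and -0.33, and was called in 3 of them (adjusted p from 0.0149 to 0.449). These were median scaling, Aquantile normalization between arrays and the replicate block. They also called the most genes of the limma fits, at 3194, 408 and 1254 against 81 in the main fit. Jam3, a junctional adhesion molecule, was at -0.26 (standard error 0.11, adjusted p = 0.272), and at -0.09 with median scaling. Other mural genes, 10 of 15 passed, had a median of -0.10 that was 0.03 with median scaling. Among them, Abcc9, a subunit of the potassium channel of pericytes, was at -1.50, -1.45, -1.31 and -1.21 for CTR1 to CTR4 and -1.95, -1.89, -1.61 and -1.73 for ONC1 to ONC4. Its log2 fold change was -0.43 (standard error 0.11), with an adjusted p of 0.0877 by limma and 0.0325 with the replicate block. The alternatives gave -0.49 to -0.02, and the block was the 1 of 17 that called it. Myl9, a myosin light chain of contractile cells, was at -0.16 (adjusted p = 0.376).

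Of other endothelial genes, 9 of 15 passed, 3 higher and 6 lower, with a median of -0.08 that was 0.17 with median scaling. Nos3, the endothelial nitric oxide synthase, was at -0.29 (standard error 0.13, adjusted p = 0.271) and lower in ONC on 4 of 4 arrays, but at 0.12 with median scaling. Eng, a TGF-beta co-receptor, was at -0.36 (standard error 0.26, adjusted p = 0.511), and 0.22 with median scaling and -0.17 without CTR4. The leukocyte adhesion genes Vcam1 and Icam1, 2 of 4 that passed, were at -0.22 and -0.28. Without CTR3 these were -0.05 and -0.10, and without CTR4 Icam1 was at -0.13. They were larger without CTR2, at -0.31 and -0.46, and without CTR1, at -0.31 and -0.43. Vcam1 had its highest level in CTR3, at 1.03 against 0.24 to 0.59 in the other CTR channels. Icam1 was at -0.55 and -0.62 in CTR3 and CTR4 and between -1.62 and -1.24 in the others.

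**Figure D4:**
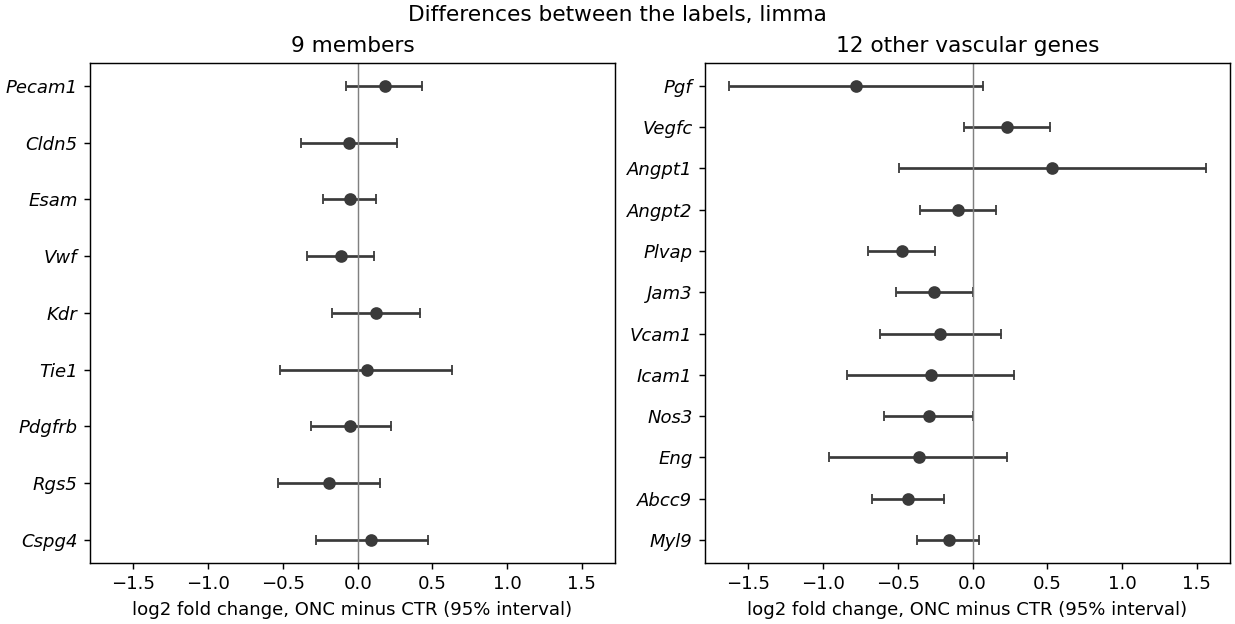
Log2 fold change of ONC minus CTR (horizontal axis) with its 95% interval by limma, for the 9 genes on the left and 12 genes of the other vascular lists on the right. All 9 intervals on the left cross 0, from -0.53 at the low end for Rgs5 to 0.63 at the high end for Tie1; Plvap and Abcc9 on the right lie below 0.

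Other cell types were checked because bulk retina holds them all. Of the rod photoreceptor list 7 of 9 passed, with Gnat1 brightest and a median log2 fold change of 0.01, and its summed level ran from 322 in ONC2 to 465 in CTR1. The median was -0.28 with median scaling and -0.02 with the processed signals. The ganglion cell markers, described at the start, had a median of 1.16. Isl1, whose levels did not set CTR2 and ONC4 apart, was called at 0.64 (adjusted p = 0.0418 by limma). The alternatives gave 0.56 to 0.68 for Isl1, and 8 of 17 called it (adjusted p from 0.00839 to 0.384). Microglia and macrophage genes, 11 of 11, had a median of -0.35 (10 lower, or 6 with median scaling) with C1qb brightest and summed levels of 10.0, 9.77, 19.6 and 19.7 for CTR1 to CTR4 and 7.68, 12, 9.46 and 11.5 for ONC1 to ONC4. Astrocyte genes (4 of 5, Aqp4 brightest) had a median of -0.31, their summed level was highest in CTR4 at 3.84, and Aldh1l1 and Pax2 were each well above background in 7 of 8 channels. These last lists were highest in CTR3 and CTR4, as were Rgs5, Pgf, Icam1, Vcam1, Eng, Nos3, Abcc9 and Angpt2. The part of these lists in the values of the vascular genes was not tested.

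Blood was present. Of the red blood cell list 4 of 7 passed, Hba1 was brightest, the median was 0.15, or 0.26 with median scaling, and Slc4a1 was well above background in 3 of 8 channels. Platelets are also known to make Pecam1 and Vwf. Of the platelet list, 4 of 6 passed with a median of -0.03, or 0.43 and 4 of 4 higher with median scaling, Gp1bb was brightest, and Gp1ba and Ppbp were well above background in 0 and 5 channels. Itga2b, an integrin subunit of platelets named after its values were seen, was at 0.47 (standard error 0.11, adjusted p = 0.0837 by limma, 0.0432 with the replicate block). Its groups did not overlap, as in 12.7% of all genes, and ONC was higher on 4 of 4 arrays. Oligodendrocyte lineage genes (8 of 10) had a median of 0.10, or 0.43 with median scaling, with Mog and Olig2 well above background in 0 channels. Cnp, a myelin enzyme also named after its values were seen, ran the other way at -0.75 (standard error 0.18, adjusted p = 0.0807 by limma, 0.0290 with the replicate block). Its groups, too, were among the 12.7% without overlap, and ONC was lower on 4 of 4 arrays. The pigment epithelium and melanocyte list (7 of 10, Ttr brightest) had a median of 0.11, with Best1 and Tyr well above background in 5 and 1 channels. Fibroblast genes (3 of 7, Col1a1 brightest) had a median of 0.05, or 0.41 with median scaling and -0.04 with the processed signals, and Dcn, Dpt, Fbln1 and Lum were well above background in 3, 2, 1 and 0 channels. Lens genes (9 of 9, Crygs brightest) had a median of -0.31 and a summed level of 208 in CTR2 against 58.7 to 125 in the other channels.

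**Figure D5:**
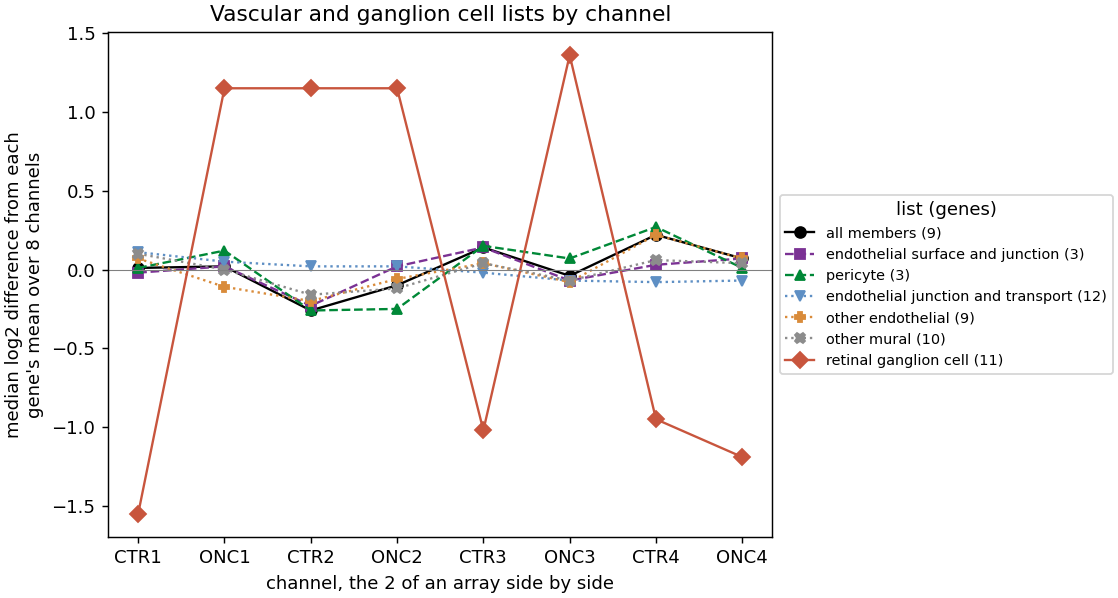
Median log2 difference of each list from its genes' means over 8 channels (vertical axis) in each channel (horizontal axis), with the channels of an array side by side and the number of genes in brackets. Ganglion cell markers swing between -1.55 and 1.36, while the 9 vascular genes stay between -0.26 and 0.22.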

How the data were processed

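The authors deposited a scanner file for each of 4 arrays, and the values used are intensity: per spot and channel, the mean foreground, the median local background and a processed signal, from Agilent Feature Extraction, version 12.0.3.1 by the headers and 11.1.19.1 by the submitters' processing notes. All 8 channels were grouped by the labels, 4 of each group. The 10 genes and all lists were chosen with earlier results of these data known.

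Each array had 44254 spots, 1377 of them controls. A spot was kept if it was no control, had no outlier flag and reached 2 times its background in all 8 channels, leaving 27371 spots, 18599 probes and 16307 genes. That ratio was reached by 71.9% to 75.0% of spots for CTR and 98.2% to 99.9% for ONC. Signals had their background subtracted, were loess-normalized per array, and were centred on channel medians. Spots were averaged into probes and probes into genes on the log2 scale. Labels were compared in R 4.3.3 with the moderated two-sided test of limma 3.58.1, unpaired as in the methods, and genes were called when the Benjamini-Hochberg p over all genes was under 0.05. The code was tested on simulated data. Figures were drawn in Python 3.11.15 (numpy 2.4.6, pandas 2.3.3, matplotlib 3.10.9).

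The labels put CTR and ONC retinas of the same number on the same array, which makes the array a block. Deviations from the group means over genes correlated at 0.149, 0.549, 0.401 and 0.487 in the 4 same-numbered pairs and at -0.512 to 0.171 in the 12 others, where CTR1 with ONC2 (0.171) was above CTR1 with ONC1 (0.149). REV, GES and the fold-change limit followed the equations of the methods on linear normalized values.

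Beside the 10 genes, the text names vascular genes called with or without the block, the 2 genes with the smallest unadjusted p in each of 6 vascular lists, and, of 10 marker lists, the brightest gene and those that fell short of well above background in some channel. Genes were matched by the design's own names, where 7 listed names were not found: Ptprb, Mmrn2, Ndufa4l2, Pou4f1, Hba2, Hba-a2 and Pmel. In addition, 2 genes first placed on the marker lists were taken off, for a reason unrelated to their values, and enter no result. Probe sequences and positions come from the deposited files. Alternatives covered background correction, normalization, filter, probe summary, block, test and samples. Their values for the other vascular genes and lists were added after the data had been seen.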

Additional observations from a re-analysis of the deposited data

Results flagged for a closer look

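Among the 18 groups of 4 channels formed by the 9 genes and 2 labels, 2 held a channel whose gap to its nearest neighbour, divided by the range of the group, was above Dixon's 95% critical value for 4 samples. Those ratios were 0.873 for Pecam1 and 0.843 for Pdgfrb. Pecam1 was at -0.42 in CTR3, against -0.90 to -0.84 in the other CTR channels. Pdgfrb was at -1.36 in CTR2, against -1.01 to -0.94 in the others. Over all named genes that passed the filter, 8 of 72 groups met the same rule, and chance flags about 1 in 20.

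Outside the 9 genes, Jam3 was at -2.27 in ONC2. Nefm stood apart under both labels, at 2.84 in CTR2 and at -0.35 in ONC4. Hba1 was at 2.09 in CTR2 and Ttr at 4.44 in ONC2. Aldh1l1 was at -4.64 in ONC4, the channel where it was not well above background. What set these channels apart was not tested.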

How the results depend on the processing

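With limma, 0 of the 9 genes were called under any alternative, and the methods' t-test also called 0 of them. The count over all genes moved far more. From 81, it became 14 with normexp, 3194 with median scaling without loess, 21 with processed signals, 408 with Aquantile, 0 without the filter on dim spots and with normexp (1957 genes at an unadjusted p under 0.05), 124 with the brightest probe and 123 with spots well above background, a filter that also left Tie1 without a value and dropped 1 spot with no positive signal. Median scaling also moved the share of calls higher in ONC from 46.9% to 71.0%. With the array as a replicate block (paired), 1254 genes were called, and the block changed no call among the 9 genes. The methods' t-test took 2682 genes, 0 after Benjamini-Hochberg adjustment and 510 with the fold-change limit. In CTR2, CTR4, ONC1 and ONC3 alone, where labels and methods name the same dye, limma called 0 genes (1961 at an unadjusted p under 0.05), and the median log2 fold change of the 9 genes was 0.14 in place of -0.05. Leaving out a channel gave 0 to 38 genes, with 38 only without ONC2, and 2085 to 3252 genes at an unadjusted p under 0.05. The median of the 9 genes then ranged from -0.12 to 0.04.

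Some directions turned: Kdr to -0.25 and Pdgfrb to 0.02 with median scaling; Tie1 to -0.38, Esam to 0.04 and Pdgfrb to 0.15 with processed signals; Tie1 to -0.03 without the filter; Vwf to 0.09 with the brightest probe; and Pdgfrb to 0.17 in those 4 channels. With a channel left out, Tie1 ranged from -0.12 to 0.27, Cspg4 from -0.02 to 0.20, Cldn5 from -0.19 to 0.04, Pdgfrb from -0.14 to 0.00, Kdr from 0.02 to 0.18, Vwf from -0.16 to -0.05, Esam from -0.08 to -0.01, Pecam1 from 0.13 to 0.29 and Rgs5 from -0.31 to -0.08. Pecam1 and Rgs5 kept their direction under all alternatives run. Reasons for these shifts were not tested. Low signal over background limits Tek and Tie1.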
